A study of Mus musculus with 19 samples.

Results

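Wnt ligands, their receptors and the proteins that modulate them were examined by RNA-seq in MEFs (mouse embryonic fibroblasts), in prostate tissue and in renal grafts. The 48 genes were chosen by symbol from the 23284 genes of the series, as every gene named Wnt, Fzd, Sfrp, Rspo or Dkk with a number, together with Wif1, Lgr4, Lgr5, Lgr6, Lrp5, Lrp6 and Axin2. They comprise 19 Wnt ligands, 10 Frizzled receptors, 2 LRP coreceptors, 4 R-spondins, 3 LGR receptors, 9 secreted inhibitors and Axin2, and all 48 were present in both deposited matrices.

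Wnt proteins are lipid-modified secreted ligands that bind Frizzled receptors, and with the coreceptors Lrp5 or Lrp6 they keep β-catenin from being degraded, so that it acts with TCF/LEF factors on target genes such as Axin2, a component of the negative feedback. R-spondins, through Lgr4, Lgr5 and Lgr6, spare Frizzled receptors from removal at the cell surface, whereas Sfrp proteins and Wif1 bind Wnt ligands outside the cell and Dkk proteins act on Lrp5 and Lrp6. Other Wnt ligands, Wnt5a among them, are best known for signalling that does not use β-catenin, and in the developing prostate Wnt signals pass between urogenital mesenchyme and epithelial buds.

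The samples were 6 MEF libraries, 6 prostate libraries, 5 renal grafts in the same matrix and 2 renal grafts in a matrix of their own, all given as strain C57BL/6. The MEFs came from E13.5 embryos (limb buds of pooled littermates of both sexes, in the study's methods) and are labelled as heterozygous for a lacZ allele. The prostate libraries are labelled with 6 weeks of growth and with no allele. Grafts were built from induced epithelial (iEpt) cells, which are fibroblasts converted in epithelial medium after retroviral OCT4, SOX2, KLF4 and c-MYC, recombined with urogenital mesenchyme of the rat and grown for 6 weeks as renal grafts in male nude mice that also carried testosterone pellets. FS002, FS003, FS005, FS007 and FS008 are listed by the study as grafts of iEpt cells that had also received retroviruses for further transcription factors, while the labels describe them no differently from the other 2, FS022 and FS023, which are therefore treated only as grafts of the second matrix. Graft stroma is of rat origin and host kidney of mouse origin, and how rat reads were treated is not given in the sources used here.

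The deposited values are log2 normalised read counts. Reads on genes were estimated at 20418158 to 26152339 in MEFs, 16767287 to 22512387 in prostate and 17371422 to 23446519 in the 5 grafts, but only 6629663 and 9662056 in FS022 and FS023, so that 3 reads correspond to a value of 1.68 to 2.34 in the first matrix and of 2.70 to 3.12 in the second. Values at or below that level were taken as not distinguishable from absence at this depth. Epithelial markers (Epcam, Cdh1, Krt8, Krt18, Krt5, Trp63) summed to 2079 to 2725 reads per 1000000 reads on genes in prostate, 1377 to 3558 in the 5 grafts and 3.16 to 22.5 in MEFs, and 6 fibroblast markers to at least 21818 in MEFs and at most 5349 elsewhere. The 6 prostate secretion markers reached at least 64325 in prostate but 208 to 846 in the 5 grafts, and they were also found in MEF libraries FS015 to FS018 (48.1 to 178) but hardly in FS019 and FS020 (at most 0.296). Kidney markers varied from 87.9 to 11981 in the grafts, and MEF libraries formed 3 closely alike pairs, FS015 with FS020, FS016 with FS019 and FS017 with FS018. Nothing in the labels says whether libraries of a group come from separate animals or cultures, so the p-values measure the spread between these libraries only, and in tissue RNA fewer cells of a type cannot be told apart from less RNA per cell.

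Sequence just upstream of the transcription start was available in RefSeq (GRCm38.p6) for 31 of the 48 genes, in 34 windows of 250 bases. The core of the TCF/LEF binding motif, CTTTGAT on either strand, was searched because Axin2 is a textbook target of β-catenin, along with the TATA box (TATAAA) and the CCAAT box (CCAAT), also on either strand. The TCF/LEF core occurred in 2 member windows (5.88%) and in 3.21% of all 32851 windows, the TATA box in 14.7% and 12.4%, and the CCAAT box in 32.4% and 33.8%. No marked letters overlapped in the windows shown. The 5 stretches below end at the base before the start and are given 5′ to 3′ on the strand of the gene, with matches to any of the 3 motifs in capitals. Wnt11 and Wnt5b are shown as the members with the TCF/LEF core, and Wnt4, Wif1 and Axin2 as members on which the results turn. They lie at chr7:98835012-98835111 on the plus strand (Wnt11), chr6:119449387-119449486 on the minus strand (Wnt5b, 1 of 3 annotated starts), chr4:137277535-137277634 on the plus strand (Wnt4), chr10:121033904-121034003 on the plus strand (Wif1) and chr11:108920249-108920348 on the plus strand (Axin2).
Wnt11: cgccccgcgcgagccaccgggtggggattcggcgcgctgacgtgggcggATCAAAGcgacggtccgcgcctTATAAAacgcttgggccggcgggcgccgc
Wnt5b: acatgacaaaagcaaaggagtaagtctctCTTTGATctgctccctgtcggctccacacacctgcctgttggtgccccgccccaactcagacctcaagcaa
Wnt4: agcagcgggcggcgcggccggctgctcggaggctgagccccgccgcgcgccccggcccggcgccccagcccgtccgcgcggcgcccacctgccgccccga
Wif1: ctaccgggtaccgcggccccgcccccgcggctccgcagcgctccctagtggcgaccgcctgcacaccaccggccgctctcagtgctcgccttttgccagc
Axin2: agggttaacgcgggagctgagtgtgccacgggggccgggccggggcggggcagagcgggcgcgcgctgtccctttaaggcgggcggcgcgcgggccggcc
In Wnt11 the core lies on the opposite strand, starting 51 bases before the transcription start, with a TATA box at 29 bases, and in Wnt5b the core starts 71 bases before it. The Axin2 window had 69.2% G and C and no match to any of the 3 motifs, and that of Wnt4 had 85.2% G and C. Over the member windows the median was 67.4%, compared with 52.4% over all windows. In Wif1 a TATA box lies 232 bases before the start, outside the stretch shown. A match here is a run of letters and not a measured site, and the absence of one says only that these letters are not in the window.

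Axin2, the feedback target, differed between all 3 groups. Its values ran from 5.44 through a median of 6.41 to 6.52 in MEFs and from 9.03 through 9.59 to 9.97 in prostate. In the grafts, taken in the order FS002, FS003, FS005, FS007, FS008 here and throughout, it had 8.40, 8.88, 8.72, 7.61 and 7.99. Every graft lay above every MEF library and below every prostate library, with the mesenchymal and epithelial cells of each tissue read together. The log2 fold change of prostate over MEFs was 3.34 (standard error 0.21, limma, adjusted p = 9.11e-09), in grafts over MEFs it was 2.11 (standard error 0.28, limma, adjusted p = 5.55e-05) and in prostate over grafts 1.23 (standard error 0.25, limma, adjusted p = 0.00166). No single library decided these differences, which ranged from 3.18 to 3.44, from 1.96 to 2.29 and from 1.05 to 1.37 when each library was left out in turn. Axin2 lies on chromosome 11 from 108781663 to 108812097 in mm9, the assembly of the deposited data.

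**Figure D1:**
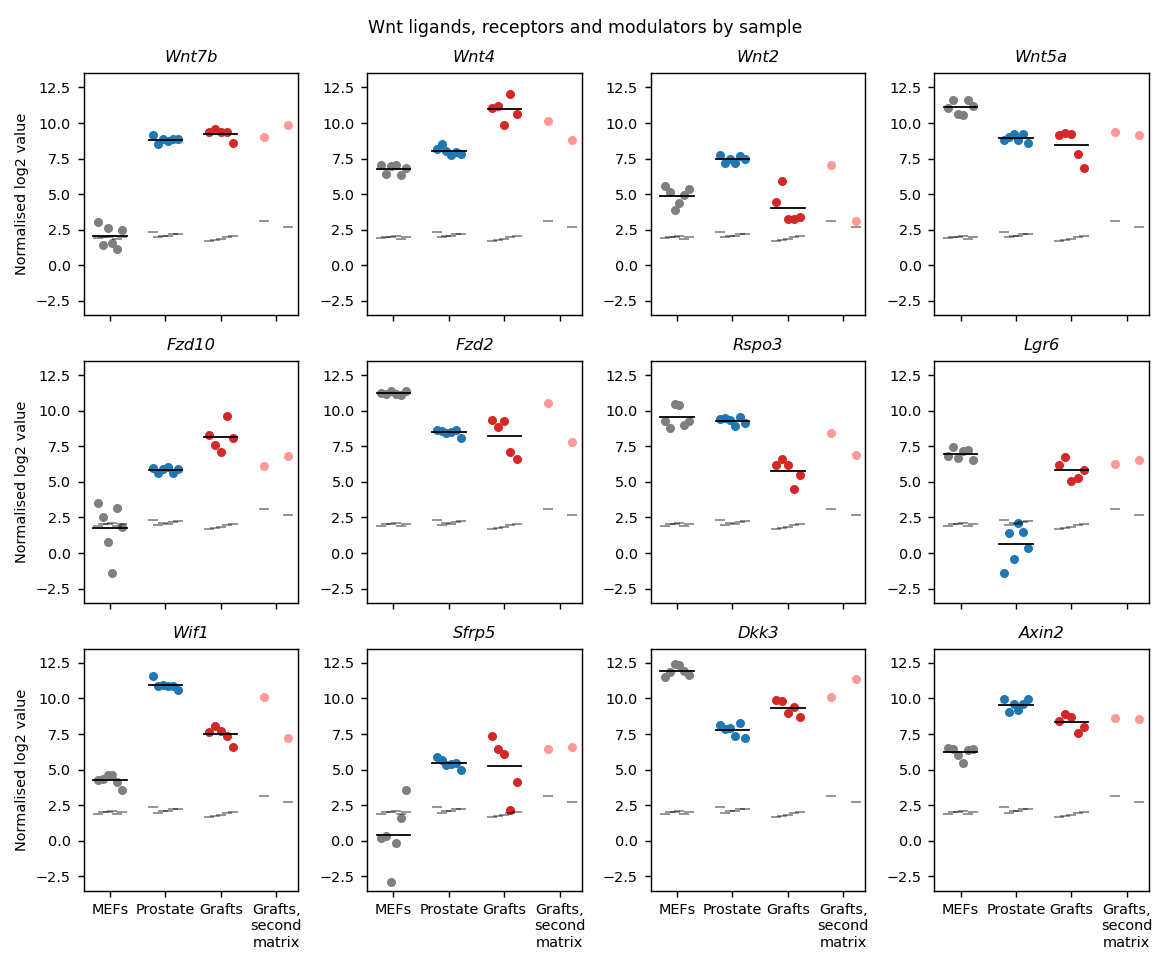
Normalised log2 values (y axis) of 12 Wnt ligands, receptors and modulators in the MEF, prostate and graft libraries (x axis), 1 point per library, with a black line at the group mean in the first matrix and a short grey dash at the value of 3 reads in each library. Axin2 and Wif1 separate the 3 groups without overlap, Wnt7b is high in prostate and grafts, and Lgr6 is near or below 3 reads in prostate alone.

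Across the 48 genes, the question of how prostate differs from fibroblasts was addressed first. Genes were called with an adjusted p under 0.05 in limma (Benjamini-Hochberg over all genes tested) and a log2 fold change of at least 1 in size, and genes averaging under 10 on the linear scale were not tested. Between prostate and MEFs 38 members were tested, and 8 were called higher and 13 lower in prostate, against 27.8% of all tested genes called higher, 20.5% lower and 48.3% in either direction. Their median log2 fold change was -0.65, compared with 0.17 over all tested genes. Of the tested members, 19 of 38 were called with no overlap between the groups, against 44.6% of all tested genes. The 21 calls stood when any 1 library was left out or the MEF pairs were averaged. Between grafts and MEFs 41 members were tested, with 10 higher and 14 lower in the grafts, against 29.9% of all genes higher, 12.0% lower and 41.9% in either direction, and a member median of -0.02 compared with 0.26 over all genes. Of these members 17 of 41 were called with no overlap, against 32.6% of all genes. Here the number of called members ranged from 20 to 27 when 1 library was left out, and 6 of the 24 calls (Wnt2b, Wnt5b, Fzd3, Rspo1, Lgr5 and Lgr6) were lost when the MEF pairs were averaged. Set directly against each other, prostate and grafts differed in 20 of 42 tested members, 8 higher and 12 lower in prostate, against 10.3% higher, 23.0% lower and 33.3% in either direction, and the member median was -0.39 compared with -0.11. Called with no overlap were 13 of 42, against 23.8% of all genes, and leaving out 1 library gave 16 to 24 called members. Quantile normalization moved the median of all genes to -0.02, -0.20 and 0.15 in these comparisons. It changed the share of higher calls among all called genes from 71.3% to 42.5% for grafts over MEFs and from 30.9% to 56.001% for prostate over grafts, so that the direction of the whole transcriptome in both comparisons with grafts depends on the scaling. The comparisons share samples with each other, and their values are given side by side and not as independent evidence.

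**Figure D2:**
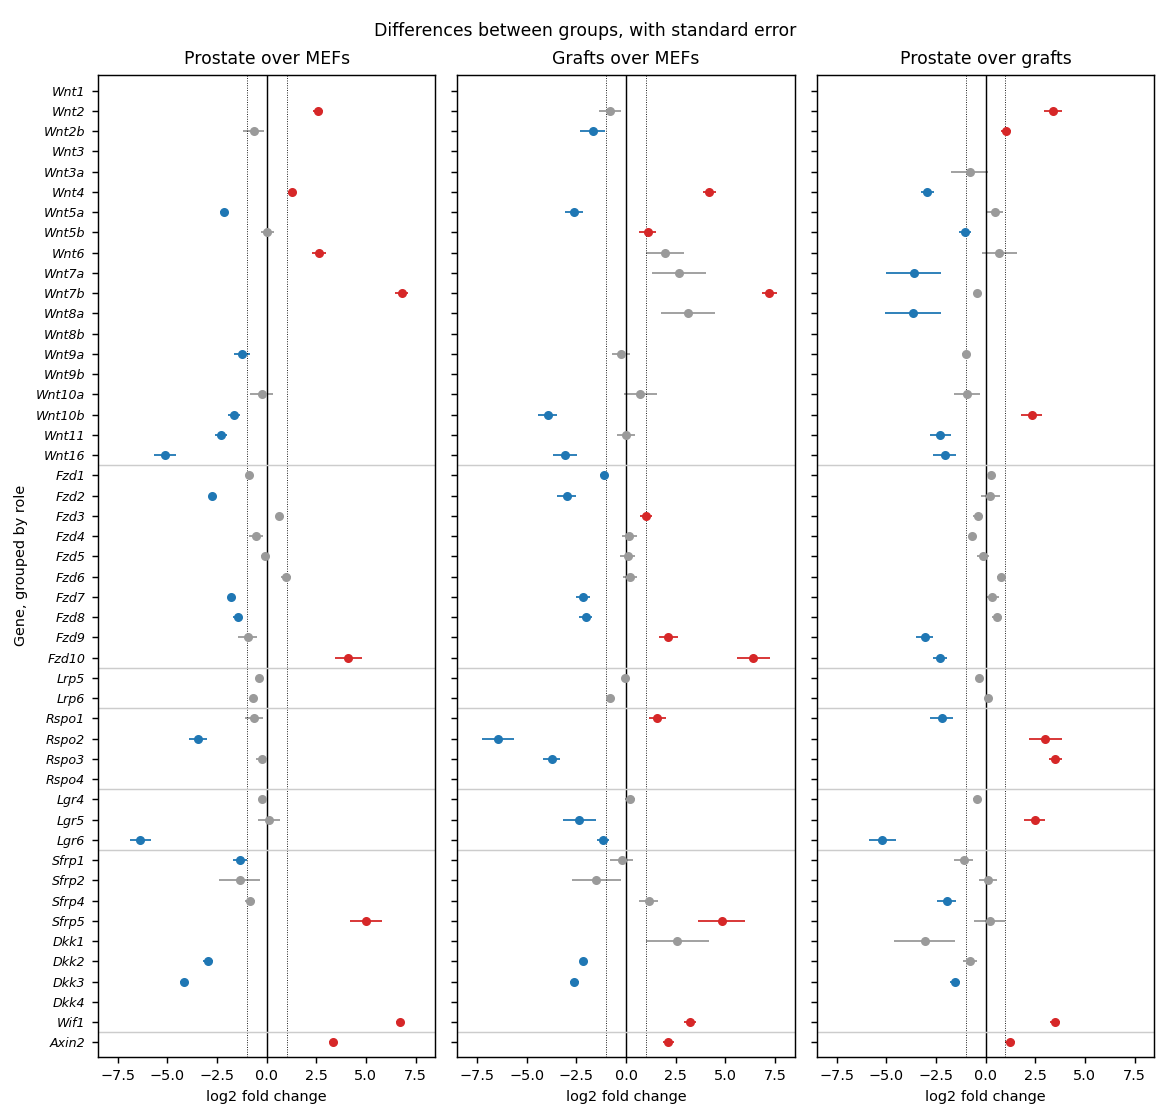
Log2 fold change (x axis) with its standard error from limma for each tested gene (y axis), in order of role from ligands to Axin2, for prostate over MEFs, grafts over MEFs and prostate over grafts. Red points were called higher and blue points lower in the group named first, grey points were not called, dotted lines mark a log2 fold change of 1 in size, and genes without a point were not tested.

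Among the ligands, Wnt7b set both tissues with epithelium apart from MEFs. Wnt7b signals from epithelium to neighbouring mesenchyme in several developing organs and lies on chromosome 15 from 85365869 to 85412251. MEF values ran from 1.18 through a median of 2.03 to 3.05, with 3 of 6 libraries at or below 3 reads, and prostate values from 8.55 through 8.87 to 9.14. The 5 grafts had 9.36, 9.59, 9.34, 9.35 and 8.63. Both sets of tissue were far above all MEFs, with a log2 fold change of 6.79 in prostate (standard error 0.31, limma, adjusted p = 4.21e-10) and 7.20 in grafts (standard error 0.39, limma, adjusted p = 1.21e-07). Prostate and grafts overlapped, and their difference of -0.41 (standard error 0.17) was not called (limma, adjusted p = 0.0538).

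Wnt4, a ligand required for the formation of kidney tubules and female reproductive ducts, was highest in the grafts. It lies on chromosome 4 from 136833404 to 136855641. The 5 grafts had 11.08, 11.20, 9.87, 12.01 and 10.66, compared with 7.78 through 7.97 to 8.502 in prostate and 6.36 through 6.92 to 7.06 in MEFs. No 2 of these groups overlapped. The log2 fold change was 4.18 for grafts over MEFs (standard error 0.32, limma, adjusted p = 1.12e-06), -2.93 for prostate over grafts (standard error 0.31, limma, adjusted p = 1.72e-05) and 1.26 for prostate over MEFs (standard error 0.17, limma, adjusted p = 1.19e-05), the last falling to 0.92 and below the minimum size with quantile normalization. The 8 kidney markers summed to 5883, 87.9, 11981, 444 and 10102 reads per 1000000 in the same 5 grafts. With FS003 and FS007 alone as the grafts, Wnt4 differed by 4.82 over MEFs and by -3.57 for prostate over grafts, and it was called in both (limma, adjusted p = 2.05e-05 and 3.46e-05). These 2 grafts still held kidney markers, at 87.9 and 444, compared with at most 4.82 reads per 1000000 in prostate and 18.9 in MEFs. The part of kidney cells in the Wnt4 values was not tested.

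Wnt2 and Wnt10b were higher in prostate than in grafts. Wnt2, a mesenchymal ligand of the developing lung, had 7.18 through 7.48 to 7.73 in prostate, 3.86 through 5.05 to 5.60 in MEFs and 4.48, 5.92, 3.26, 3.23 and 3.38 in the grafts. Prostate lay above every library of both other groups, with a log2 fold change of 2.58 over MEFs (standard error 0.27, limma, adjusted p = 1.09e-06) and 3.40 over grafts (standard error 0.46, limma, adjusted p = 9.28e-05). Wnt10b, which restrains fat cell formation, had 6.13 through 6.51 to 7.24 in MEFs, 3.81 through 5.08 to 5.63 in prostate and 3.64, 3.27, 3.35, 1.64 and 1.33 in grafts, the last 2 at or below 3 reads. These 3 ranges did not overlap, and the log2 fold change was -3.95 for grafts over MEFs (standard error 0.48, limma, adjusted p = 3.28e-05) and 2.32 for prostate over grafts (standard error 0.54, limma, adjusted p = 0.00359). Wnt6 was also higher in prostate than in MEFs, with a log2 fold change of 2.65 (standard error 0.36, limma, adjusted p = 1.32e-05).

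Wnt5a and Wnt16 were highest in MEFs. Wnt5a, the main ligand of β-catenin-independent signalling in limb mesenchyme, had 10.54 through 11.13 to 11.65 in MEFs, 8.61 through 8.93 to 9.24 in prostate and 9.17, 9.32, 9.26, 7.80 and 6.84 in the grafts. MEFs did not overlap either group, with a log2 fold change of -2.17 in prostate (standard error 0.19, limma, adjusted p = 2.5e-07) and -2.64 in grafts (standard error 0.45, limma, adjusted p = 0.000347). Wnt16, a ligand with known roles in bone and joint, had 6.00 through 7.81 to 8.56 in MEFs, 1.10 through 2.26 to 3.62 in prostate and 5.24, 4.90, 2.84, 4.65 and 4.36 in grafts. It fell by 5.13 on the log2 scale in prostate (standard error 0.54, limma, adjusted p = 1.32e-06) and by 3.07 in grafts (standard error 0.59, limma, adjusted p = 0.000834), and 3 of 6 prostate libraries were at or below 3 reads. Wnt11 changed by -2.29 in prostate over MEFs (standard error 0.28, limma, adjusted p = 5.33e-06), whereas between grafts and MEFs its difference was -0.02 (standard error 0.47, limma, adjusted p = 0.98), and -1.79 and called lower with quantile normalization (limma, adjusted p = 0.00447).

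Compared per length, as reads per kb of exon per 1000000 reads on genes, the leading ligand differed between the groups. In MEFs it was Wnt5a, with a mean of 15.5 (range 10.0 to 20.9), above the range of Wnt9a (mean 4.49, range 1.46 to 7.68). In prostate Wnt7b led with 5.36 (range 4.504 to 5.97), followed by Wnt2 at 4.02, Wnt5a at 3.32 and Wnt4 at 3.26, each of which overlapped its neighbour in this order, and then by Wnt5b at 1.74, below the range of Wnt4. In the 5 grafts Wnt4 led with 35.8 (range 16.0 to 62.5), above the range of Wnt7b at 9.65 (range 5.76 to 12.03), which overlapped Wnt5b at 5.27. Of the 19 ligands, 10, 11 and 10 were above 3 reads in every library of MEFs, prostate and grafts, and 4, 5 and 0 at or below it in every library. Wnt1, Wnt3, Wnt8b and Wnt9b were too low to be tested in any comparison and Wnt3a in those with MEFs, while Wnt10a was tested and called in none.

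**Figure D3:**
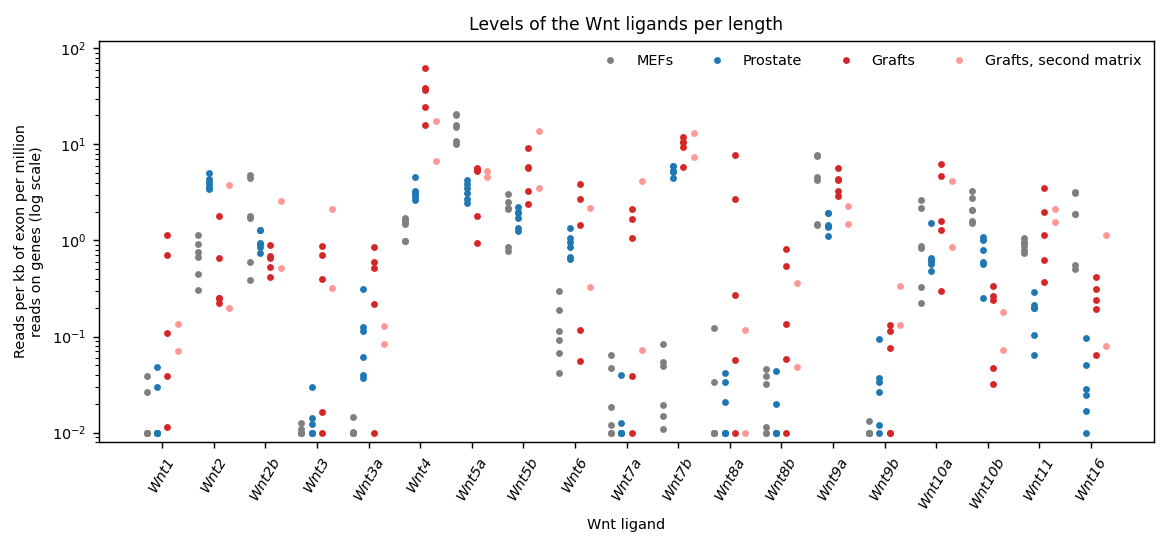
Reads per kb of exon per 1000000 reads on genes (y axis, log scale) for the 19 Wnt ligands (x axis), 1 point per library and 1 colour per group, with values under 0.01 drawn at 0.01. Wnt4 in the grafts spans 16.0 to 62.5 and stands above every other ligand of the same grafts on average, Wnt5a leads in MEFs and Wnt7b in prostate.

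The Frizzled receptors showed 2 patterns. Fzd2, Fzd7 and Fzd8, receptors for ligands of several kinds, were highest in MEFs and were called lower in both prostate and grafts. Fzd2 had 11.11 through 11.22 to 11.37 in MEFs, 8.08 through 8.56 to 8.64 in prostate and 9.33, 8.86, 9.30, 7.11 and 6.64 in grafts, with log2 fold changes of -2.76 (standard error 0.09, limma, adjusted p = 4.39e-11) and -2.99 (standard error 0.47, limma, adjusted p = 0.000196) against MEFs. All tissue libraries lay below all MEFs. Fzd7 and Fzd8 changed by -1.81 and -1.45 in prostate and by -2.15 and -2.03 in grafts. Per length, Fzd2, Fzd7 and Fzd1 led in MEFs with means of 35.1, 33.8 and 28.1 and overlapped, while in prostate Fzd6 and Fzd1 led at 15.6 and 14.97, above the range of Fzd7.

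Fzd10, a receptor with restricted expression in adult tissue, rose in the opposite direction. MEFs had -1.42 through 2.18 to 3.53, with 3 of 6 libraries at or below 3 reads, prostate had 5.59 through 5.92 to 6.07, and the grafts had 8.31, 7.62, 7.10, 9.60 and 8.07. None of these groups overlapped. The log2 fold change was 4.12 in prostate over MEFs (standard error 0.69, limma, adjusted p = 0.000105) and 6.41 in grafts over MEFs (standard error 0.85, limma, adjusted p = 5.92e-05), which became 3.29 and 5.58 with values below 3 reads set to 3 reads, and -2.29 in prostate over grafts (standard error 0.37, limma, adjusted p = 0.000323). Fzd9 was likewise highest in grafts, at 6.21, 6.16, 5.88, 5.48 and 6.85, compared with 1.57 through 3.28 to 3.71 in prostate and 3.14 through 3.58 to 5.25 in MEFs. Grafts lay above both other groups, and Fzd9 changed by -3.07 on the log2 scale in prostate over grafts (standard error 0.43, limma, adjusted p = 0.000118). Its difference of 2.12 between grafts and MEFs (standard error 0.47, limma, adjusted p = 0.00214) turned to -0.29 with quantile normalization (limma, adjusted p = 0.678). Fzd10 had no position in the annotation used here, so its level per length was not computed.

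Of the remaining Frizzled receptors, Fzd1 and Fzd3 were called only between grafts and MEFs, with log2 fold changes of -1.13 and 1.01 near the minimum size. The difference of Fzd1 was -0.97 without FS007 or with quantile normalization. That of Fzd3 was 0.82 to 0.99 without any 1 of FS002, FS003, FS005, FS016, FS017 and FS018, and neither was called in those fits. Fzd4, Fzd5 and Fzd6 were called in no comparison, and their differences were between -0.70 and 0.98.

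The coreceptors Lrp5 and Lrp6, which are required for β-catenin signalling, were abundant in all groups and called in none. Lrp6 had 11.73 through 11.97 to 12.16 in MEFs, 10.83 through 11.35 to 11.40 in prostate and 11.21, 11.28, 11.11, 10.87 and 11.30 in grafts. Prostate and grafts lay below all MEFs, but by less than the minimum size (-0.68, standard error 0.11, limma, adjusted p = 6.1e-05, and -0.80, standard error 0.11, limma, adjusted p = 7.87e-05). Prostate exceeded grafts by 0.12 (standard error 0.12, limma, adjusted p = 0.437), with a sign that turned under quantile normalization. Lrp5 had 10.31 through 10.80 to 11.04 in MEFs, 10.18 through 10.33 to 10.52 in prostate and 10.84, 11.10, 10.46, 10.52 and 10.48 in grafts, and the groups overlapped. Its 3 differences were -0.39, -0.06 and -0.33 in the order of prostate over MEFs, grafts over MEFs and prostate over grafts (limma, adjusted p = 0.0141, 0.777 and 0.0452).

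Rspo3 and Rspo2 were lower in the grafts than in both other groups. Rspo3, which in adult organs is made by stroma near stem cells, had 8.82 through 9.28 to 10.47 in MEFs and 8.91 through 9.36 to 9.57 in prostate, and MEFs and prostate overlapped. In the 5 grafts it had 6.18, 6.58, 6.21, 4.52 and 5.49, all below both other groups. The log2 fold change was -3.75 for grafts over MEFs (standard error 0.42, limma, adjusted p = 1.85e-05) and 3.52 for prostate over grafts (standard error 0.32, limma, adjusted p = 6.91e-06), against -0.24 for prostate over MEFs (standard error 0.28, limma, adjusted p = 0.443). Rspo2, a mesenchymal signal of the limb bud, had 8.85 through 10.09 to 10.46 in MEFs, 4.53 through 6.66 to 7.04 in prostate and 3.59, 3.25, 6.46, 2.32 and 1.03 in grafts, the last at or below 3 reads. MEFs stood above both tissues, with log2 fold changes of -3.45 in prostate and -6.46 in grafts, and prostate exceeded grafts by 3.01 with overlap through FS005 (limma, adjusted p = 8.86e-06, 3.51e-05 and 0.01). Rspo1 went the other way, with 5.58, 6.42, 4.40, 6.29 and 6.57 in grafts and means of 4.29 in MEFs and 3.64 in prostate. It was called higher in grafts against both (1.57 for grafts over MEFs and -2.21 for prostate over grafts, limma, adjusted p = 0.00652 and 0.00698). Its call over MEFs was lost with the MEF pairs averaged (limma, adjusted p = 0.051) and against FS019 and FS020 alone (limma, adjusted p = 0.134). Under quantile normalization its values became -0.77 and -0.73, neither called. Rspo4 was at or below 3 reads in every MEF and prostate library and was not tested. The smooth muscle markers, part of the stroma, summed to 4722 to 8702 reads per 1000000 in prostate, 4114 to 6978 in MEFs and 319 to 1766 in the same 5 grafts, and their part in the R-spondin differences was not tested. Graft stroma is of rat origin and the assembly is that of the mouse. How fully rat reads were counted for the R-spondins, Wnt2 or these markers was not tested.

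Among the R-spondin receptors, Lgr6 was nearly absent from prostate. It marks stem cells of skin and other epithelia and lies on chromosome 1 from 136882925 to 137001853. Prostate values were -1.38 through 0.90 to 2.14, with 5 of 6 libraries at or below 3 reads, compared with 6.56 through 6.97 to 7.42 in MEFs and 6.17, 6.74, 5.06, 5.25 and 5.85 in grafts. Prostate lay below every library of both groups, with a log2 fold change of -6.38 against MEFs (standard error 0.53, limma, adjusted p = 1.14e-07) and -5.21 against grafts (standard error 0.67, limma, adjusted p = 7.28e-05). Much of this size rests on values below 3 reads, and with such values set to 3 reads the differences were -4.82 and -3.65, both called (limma, adjusted p = 4.72e-11 and 8.29e-06). Grafts and MEFs overlapped, and their difference of -1.17 (limma, adjusted p = 0.00695) was not called without FS005, at -0.98, or with the MEF pairs averaged (limma, adjusted p = 0.0567).

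Lgr5, a stem cell marker of intestine and other epithelia and itself a target of β-catenin, had 7.94 through 8.13 to 8.596 in prostate and 6.48, 6.98, 6.74, 4.59 and 3.81 in grafts. Prostate lay above all grafts, with a log2 fold change of 2.47 (standard error 0.53, limma, adjusted p = 0.00228). MEFs spanned 6.54 through 7.65 to 10.00 and overlapped both, and the difference of grafts from MEFs, -2.35 (standard error 0.81, limma, adjusted p = 0.024), was not called without any 1 of FS007, FS008, FS017 and FS018 (-2.07 to -1.88) or with the MEF pairs averaged (limma, adjusted p = 0.0769). Lgr4, the most broadly expressed of the 3, had 10.25 through 10.99 to 11.06 in MEFs, 10.33 through 10.54 to 10.64 in prostate and 11.01, 11.27, 11.33, 10.08 and 11.19 in grafts. Its groups overlapped in every comparison, with differences of -0.26, 0.20 and -0.45 (limma, adjusted p = 0.129, 0.4926 and 0.0686). The sign between grafts and MEFs turned when only FS003 and FS007, or only FS007 and FS008, stood for the grafts.

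Of the secreted inhibitors, Wif1 (Wnt inhibitory factor) was high in prostate, intermediate in grafts and low in MEFs. It lies on chromosome 10 from 120471016 to 120537706. Prostate had 10.60 through 10.88 to 11.56, MEFs had 3.56 through 4.31 to 4.62, and the grafts had 7.67, 8.10, 7.71, 7.33 and 6.58. Each graft lay between all MEFs and all prostate libraries. The log2 fold change was 6.71 for prostate over MEFs (standard error 0.20, limma, adjusted p = 1.79e-11), 3.23 for grafts over MEFs (standard error 0.31, limma, adjusted p = 6.32e-06) and 3.48 for prostate over grafts (standard error 0.25, limma, adjusted p = 1.33e-06). Wif1 kept these calls in all fits, and without any 1 library the 3 values were at least 6.57, 3.07 and 3.26.

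Sfrp5 followed the epithelial tissues less evenly. This relative of the Frizzled receptors, known from gut and fat tissue, had 4.94 through 5.43 to 5.86 in prostate and 7.34, 6.44, 6.11, 2.18 and 4.14 in grafts, and in MEFs it was above 3 reads only in FS020, at 3.60. All prostate libraries lay above all MEFs, with a log2 fold change of 5.004 (standard error 0.82, limma, adjusted p = 8.1e-05). With values below 3 reads set to 3 reads it was 3.19 (limma, adjusted p = 3.57e-07). Graft FS007 overlapped the MEFs, and the difference between grafts and MEFs was 4.81 (standard error 1.20, limma, adjusted p = 0.00442), or 2.996 with low values set to 3 reads (limma, adjusted p = 0.00835), and was not called against FS019 and FS020 alone (2.63, limma, adjusted p = 0.193).

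Dkk3 and Dkk2 were highest in MEFs. Dkk3, a Dickkopf family member that binds the LRP coreceptors little if at all, had 11.49 through 11.89 to 12.45 in MEFs, 7.22 through 7.92 to 8.27 in prostate and 9.89, 9.79, 8.95, 9.40 and 8.73 in grafts, with no overlap between any groups. Its log2 fold change against MEFs was -4.16 in prostate (standard error 0.21, limma, adjusted p = 1.12e-09) and -2.60 in grafts (standard error 0.25, limma, adjusted p = 5.42e-06), and that between prostate and grafts -1.55 (standard error 0.26, limma, adjusted p = 0.000424). Dkk2 had 9.74 through 10.01 to 10.19 in MEFs, 6.04 through 7.12 to 7.78 in prostate and 8.16, 8.03, 8.16, 7.03 and 7.73 in grafts. MEFs stood apart again, with log2 fold changes of -2.94 in prostate (standard error 0.26, limma, adjusted p = 2.18e-07) and -2.15 in grafts (standard error 0.20, limma, adjusted p = 4.24e-06). Prostate and grafts overlapped in Dkk2, with a difference of -0.79 that was not called (limma, adjusted p = 0.0655). Sfrp1 changed by -1.34 in prostate over MEFs (standard error 0.35, limma, adjusted p = 0.00347), and Sfrp4 by -1.96 in prostate over grafts (standard error 0.46, limma, adjusted p = 0.00405), the latter -0.55 and not called with quantile normalization. Dkk4 was above 3 reads in 1 of the 17 libraries of the first matrix, a graft, and was not tested.

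Several genes that were at or below 3 reads in all 6 prostate libraries, and in 4 to 6 of the MEF libraries, were present in some of the grafts. Wnt3, Wnt7a, Wnt8a and Wnt1, ligands best known from gastrulation, the limb and the nervous system, and the head-inducing inhibitor Dkk1 were above 3 reads in FS002, FS003 and FS005 and at or below it in FS007 and FS008. Wnt7a had 6.58, 6.29, 5.61, 1.75 and -1.03 in the 5 grafts. Wnt8a had 6.08, 3.06, 7.58, 1.56 and -0.44, and Dkk1 had 4.83, 6.39, 7.53, -2.51 and 1.97. With values below 3 reads set to 3 reads, these 3 genes ranged over 4.603, 5.601 and 5.56 log2 units among the grafts. Wnt3 had 4.998, 4.25, 5.31, 0.64 and 1.06, and Wnt1 had 4.66, 2.40, 5.33, 1.498 and 0.71. Set against the prostate level of 3 reads, the mean normalised count of the 5 grafts was 19.7 times as high for Dkk1, 17.6 times for Wnt8a, 14.6 times for Wnt7a, 5.80 times for Wnt3 and 4.51 times for Wnt1. Wnt8b did not divide the grafts in the same way, with 2.99, 2.10, 5.34, 4.93 and 0.48, at or below 3 reads only in FS008 among the grafts, in all 6 prostate libraries and in 5 of 6 MEF libraries. Its mean in grafts was 5.14 times the prostate level of 3 reads.

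In limma, Wnt7a and Wnt8a were called lower in prostate than in grafts with overlap between the groups (-3.63, standard error 1.37, adjusted p = 0.0409, and -3.66, standard error 1.42, adjusted p = 0.0454). These fitted values depend on how values near 0 reads scatter, and with values below 3 reads set to 3 reads they were -2.34 (adjusted p = 0.0381) and -1.99, the latter not called (adjusted p = 0.0941). Dkk1, not called as deposited, was then called higher in grafts than in MEFs (2.46, limma, adjusted p = 0.0395) and lower in prostate than in grafts (-2.40, limma, adjusted p = 0.0476). The call of Wnt7a was lost without any 1 of FS002, FS003, FS005 and FS009 to FS013 (-3.798 to -2.94), and that of Wnt8a without any 1 of FS002, FS003, FS009, FS010, FS011, FS013 and FS014 (-3.94 to -3.04). With the 3 tested genes that were at or below 3 reads in all prostate libraries set to their ratio to 3 reads, the median of the tested members stayed at -0.39. All 3 lay below the median both as fitted and at that ratio, so it could not move and the step says nothing about low values. Markers of skeletal muscle summed to 4349, 2359, 2649, 277 and 71.8 reads per 1000000 in the same order of grafts, and those of neurons and glia to 455, 480, 280, 6.94 and 7.997. FS002, FS003 and FS005 were thus the grafts with more reads of both marker lists, and the part of those cells in the Wnt values was not tested.

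**Figure D4:**
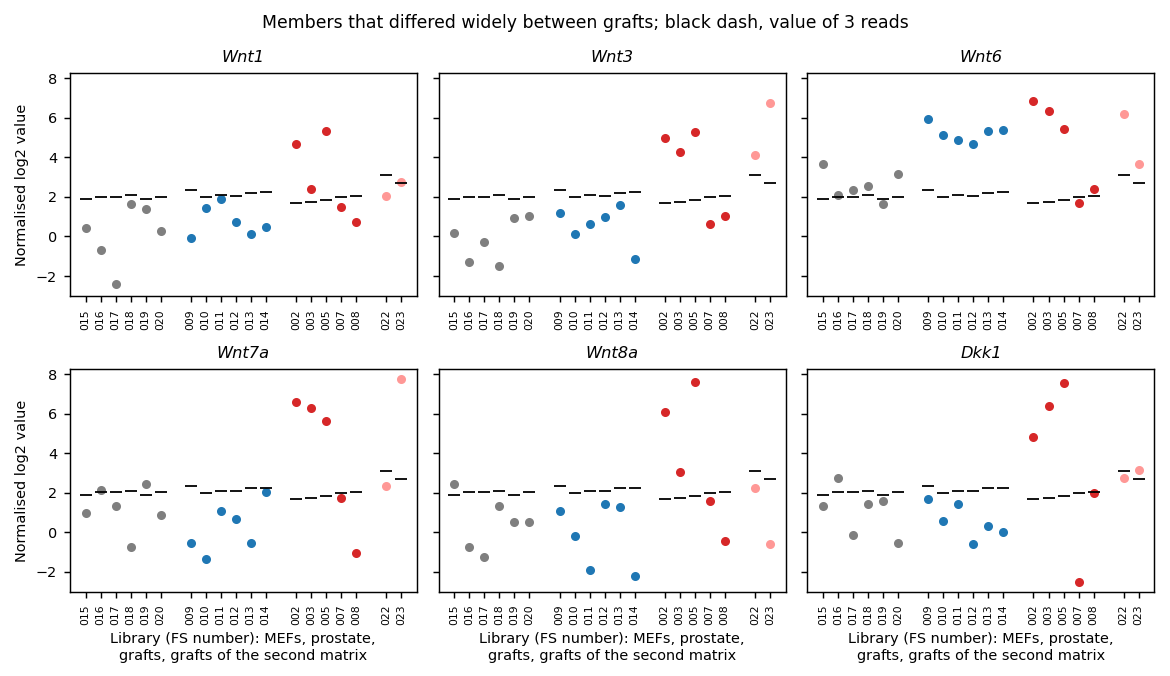
Normalised log2 values (y axis) of Wnt1, Wnt3, Wnt6, Wnt7a, Wnt8a and Dkk1 in each library (x axis, by FS number), in the order of MEFs (grey), prostate (blue), grafts (red) and grafts of the second matrix (pink), with a black dash at the value of 3 reads in that library. FS002, FS003 and FS005 lie above their dash in all 6 genes, while FS007 and FS008 lie at or below it in Wnt1, Wnt3, Wnt7a, Wnt8a and Dkk1.

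The same 2 grafts were lower in other members too. FS007 and FS008 were the 2 lowest grafts in 27 of the 44 members averaging 10 or more normalised reads in grafts (61.4%), compared with 29.2% of all 16607 genes that did so. The 27 include Wnt1, Wnt3, Wnt7a, Wnt8a and Dkk1, by which these 2 grafts were set apart above, so the share of members is partly drawn from that choice. Examples are Wnt5a (7.80 and 6.84, other grafts at least 9.17), Wnt6 (1.68 and 2.40, others at least 5.43) and Fzd7 (8.40 and 8.53, others at least 9.85). Among the exceptions were Wnt4 and Fzd10, with their highest value in FS007. In the study's supplement FS007 and FS008 also had more reads of the introduced SOX2, KLF4 and MYC than FS002, FS003 and FS005. This was not so for OCT4. The part of these introduced genes in the Wnt values was not tested. When only FS007 and FS008 stood for the grafts, 14 of the 20 calls between prostate and grafts remained, while Wnt2b, Wnt5b, Wnt11 and Sfrp4 lost theirs and 2 members were no longer tested. That fit also made 8 new calls, giving 15 higher and 7 lower in prostate.

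The 2 grafts of the second matrix, by count the study's grafts of iEpt cells alone, were normalised separately, and no test was made with them. Axin2 had 8.64 in FS022 and 8.55 in FS023, between the MEF and prostate ranges of the first matrix, and Wnt7b had 9.01 and 9.88. Wif1 was 10.13 and 7.19, Rspo3 8.45 and 6.86 and Wnt4 10.17 and 8.84, so that FS022 and FS023 differed from each other by over 1 log2 unit in all 3. FS023 had Wnt7a at 7.75 and Wnt3 at 6.75, compared with 2.35, below 3 reads, and 4.11 in FS022, and its Fzd3 value of 11.83 was above that of any library of the first matrix. The neuron and glia markers summed to 3734 reads per 1000000 in FS023 and 165 in FS022, and the smooth muscle markers to 201 and 17042. Lgr6 was present in both, at 6.23 and 6.52.

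Members also differed between the 3 pairs of MEF libraries. Of the 29 members with a mean MEF value of at least 5, the pair means were more than 1 log2 unit apart in 15 (51.7%), compared with 15.9% of the 11803 genes of the series at that level, whereas the libraries of a pair never differed by more than 0.61. The pairs were formed from the likeness of the libraries in these same data, so small differences within a pair follow from that choice. Sfrp2, an inhibitor made by mesenchyme, had 13.55 and 13.44 in FS017 and FS018, 8.53 and 8.57 in FS015 and FS020, and 7.54 and 7.57 in FS016 and FS019. The next widest were Lgr5 (pair means from 6.62 to 9.95), Wnt2b (5.11 to 8.28) and Wnt10a (3.804 to 6.89). The immune markers summed to 163 and 143 reads per 1000000 in FS015 and FS020 and to 6.25 to 8.04 in the other 4 MEF libraries, and their part in the differences between pairs was not tested. Wnt2b and Wnt5b were called between grafts and MEFs (-1.69 and 1.09, limma, adjusted p = 0.0317 and 0.0451), but without any 1 of FS002, FS005, FS015, FS016, FS019 and FS020, and for Wnt5b also FS003, they were not (-1.66 to -1.38 and 0.86 to 1.18). Against prostate, grafts had a lower Wnt2b and a higher Wnt5b, both just past the minimum size (1.03 and -1.06, limma, adjusted p = 0.00467 and 0.011), and neither held without FS002 (0.88 to 0.99 for Wnt2b without any 1 of FS002, FS005, FS010 and FS013, and -0.99 to -0.84 for Wnt5b without any 1 of FS002, FS003 and FS011). Fzd2, Dkk2 and Wnt11 were alike in all 6 MEF libraries, with pair means at most 0.38 apart.

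**Figure D5:**
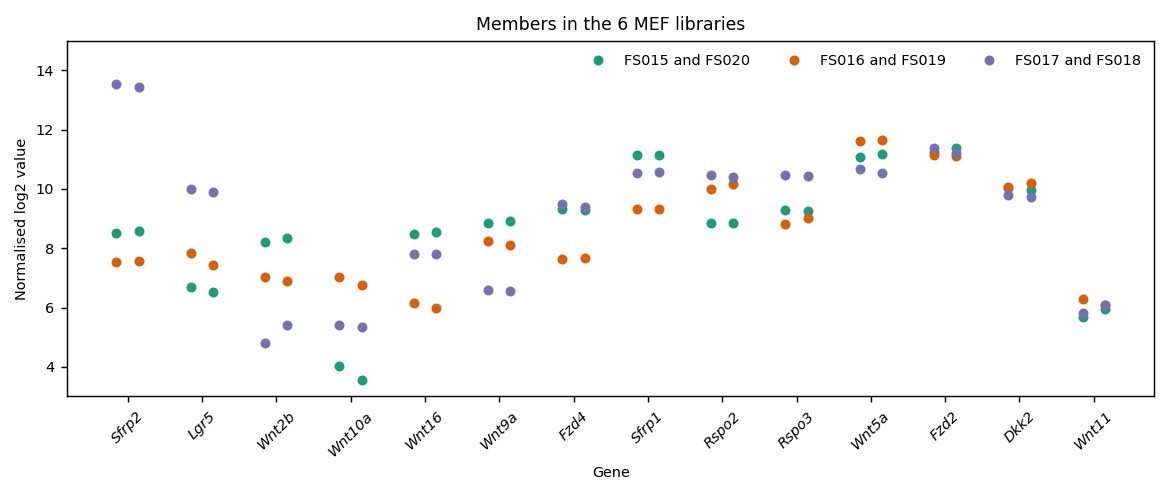
Normalised log2 values (y axis) of 14 Wnt ligands, receptors and modulators (x axis) in the 6 MEF libraries, with 1 colour for each of the 3 pairs of closely alike libraries. Sfrp2 lies at 13.44 to 13.55 in FS017 and FS018 and at 7.54 to 8.57 in the other 4, whereas Fzd2, Dkk2 and Wnt11 hardly differ between pairs.

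Outside these 48 genes, 53 others with roles in Wnt secretion, reception, transduction and planar polarity were read in the same fits. Between prostate and MEFs 14 were called higher and 15 lower of 52 tested, against 27.8% and 20.5% of all tested genes, with a median of -0.44 compared with 0.17. Sp5, a transcription factor induced by β-catenin, had 7.93 to 8.96 in prostate and was at or below 3 reads in every MEF library, and its prostate mean of 378 normalised reads was 150.4 times the level of 3 reads. Tnfrsf19 and Nkd1, a receptor and a feedback inhibitor that both respond to Wnt signals, were higher in prostate by 5.49 and 3.96 (limma, adjusted p = 1.02e-08 and 6.9e-06). Of the 3 genes listed as often used targets, Sp5 and Tnfrsf19 were called higher in prostate and Ccnd1 was called lower. The largest decreases were in Fat4, a protocadherin of planar polarity (-4.74), Gpc4, a glypican (-4.22), and Cthrc1, a secreted cofactor of Wnt receptors (-3.90).

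In grafts against MEFs 13 were higher and 10 lower of 52 tested, against 29.9% and 12.0% of all genes, with a median of -0.19 compared with 0.26. The largest increases were in Sp5, whose mean in grafts was 37.1 times the MEF level of 3 reads, in Celsr1, a planar polarity cadherin (5.58), and in Sostdc1, a secreted antagonist (4.95), and the largest decreases in Fat4 (-5.49), Cthrc1 (-3.84) and the Wnt5a receptor Ror2 (-3.19). Between prostate and grafts 5 were higher and 12 lower in prostate of 53, against 10.3% and 23.0% of all genes, with a median of -0.18 compared with -0.11. Nkd1 (3.32), Sp5 (2.48) and the corepressor Tle2 (1.90) were higher in prostate, and Celsr1 (-5.39), the Frizzled-related inhibitor Frzb (-4.16) and the Dkk receptor Kremen2 (-3.40) were lower. Sp5 had 7.002, 6.17, 7.60, 3.23 and 6.15 in the 5 grafts, all below the lowest prostate library and above all MEFs, the same order of groups as Axin2. The other 2 of the 3 listed targets were not called between prostate and grafts. Nkd1 lay inside the MEF range of 4.76 to 7.67 in FS007 and FS008, at 5.43 and 4.89. In the other grafts it was above that range, at 8.12 to 8.37.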

How the data were processed

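Total RNA of 19 libraries (Illumina TruSeq) was sequenced. Both deposited matrices hold log2 values that the authors obtained by DESeq normalization of counts per gene, and per the labels the authors used bcl2fastq 1.8.4, TopHat, Cufflinks, DESeq and mm9. Of 20444 values between 11.5 and 15, all came out as whole reads within 0.05 reads, which gave the depths, while lower values carry scatter. Groups were taken from the labels and compared within the first matrix with limma 3.58.1 (R 4.3.3; trended empirical Bayes) on the deposited log2 values, for genes averaging 10 or more normalised reads, with Benjamini-Hochberg adjustment over all genes tested. The fits were also run on simulated data with independent scatter in each library. That run lacked the alike MEF pairs, so it says nothing about their effect on the calls. Tables and figures used Python 3.11.15 with pandas 2.3.3, scipy 1.17.1 and matplotlib 3.10.9. The genes and lists were chosen with earlier results of these data known. Named in full were, per comparison, the 6 called members that changed most in each direction, and always Axin2, Lgr4, Lgr5, Lgr6, Lrp5, Lrp6 and Wif1, and of the other pathway genes the 3 largest in each direction. Further members, and the promoters shown, were chosen after their values were seen. Alternatives were an offset of 1, other filters on low values, quantile and median scaling, no minimum fold change, 1 fit of all groups, no trend, each library left out and MEFs FS019 and FS020 alone. Averaging the MEF pairs, setting values below 3 reads to the value of 3 reads and leaving out the 3 grafts richest in kidney or in skeletal muscle markers were added after seeing the data. The gene of the lacZ allele and the added factors are not reported here.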

Additional observations from a re-analysis of the deposited data

Results flagged for a closer look

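In 8 of 130 sets of 5 or 6 libraries checked, 1 library lay far from the others of its group, where chance at 1 in 20 would give 6.5. All 8 were in prostate or grafts. The figure of 6.5 assumes independent libraries, and the alike pairs make a lone outlier less likely in MEFs. Among the grafts, FS008 had 8.63 for Wnt7b with the others at 9.34 to 9.59, and 3.78 for Sfrp4 with the others at 5.84 to 6.41. Graft FS007 had 10.08 for Lgr4 with the others at 11.01 to 11.33, and 7.86 for Sfrp1 with the others at 10.50 to 10.78. In prostate, FS009 had 6.34 for Wnt10a (others 4.57 to 5.09), 10.83 for Lrp6 (others 11.31 to 11.40) and 4.53 for Rspo2 (others 6.19 to 7.04), and FS014 had 1.57 for Fzd9 (others 2.96 to 3.71).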

How the results depend on the processing

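Of 1136 values of the named genes under alternatives, 1123 kept their direction. Some of these alternatives could not turn a direction, because they leave the fold change itself unchanged. They are the other filters on low values, no minimum fold change, no trend, 1 fit of all groups and averaged MEF pairs. With single libraries left out, members called ranged from 21 to 22 in prostate over MEFs (higher 8 to 9, lower 13 to 14), 20 to 27 in grafts over MEFs (higher 8 to 14, lower 12 to 15) and 16 to 24 in prostate over grafts (higher 7 to 8, lower 9 to 16). A minimum mean of 50, which leaves fewer genes tested, gave 5 higher members in prostate over MEFs, and 11 called with 4 lower in prostate over grafts. Quantile normalization gave 6 higher members in grafts over MEFs and 5 lower in prostate over grafts, and for other pathway genes 8 higher in grafts over MEFs and 11 higher in prostate over grafts, against 3 with median centring. Without a minimum fold change, other pathway genes called were 45 (28 lower), 35 (19 lower) and 27 (8 higher, 19 lower) in the 3 comparisons. MEFs FS019 and FS020 alone gave 6 higher members in grafts over MEFs, and grafts FS007 and FS008 alone gave 15 higher and 7 lower in prostate over grafts. Signs turned under quantile normalization for Lgr5 in prostate over MEFs (-0.075), Fzd9 (-0.29) and Lrp5 (0.13) in grafts over MEFs and Lrp6 in prostate over grafts (-0.031). For grafts over MEFs they also turned for Lrp5 with median centring (0.0056) and with FS003 and FS007 alone (0.072), and for Lgr4 with FS003 and FS007 alone (-0.10) or FS007 and FS008 alone (-0.14). With 1 library left out, Lgr5 in prostate over MEFs ranged from -0.19 to 0.51 (-0.16 and -0.0033 among them), and Lrp5 in grafts over MEFs from -0.16 to 0.0033 (0.0013 among them). The cause was not tested. Depth limits genes at or below 3 reads. No paired analysis was possible because the labels carry no replicate numbers.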
